A study of Mus musculus with 9 samples.

Results

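The Hox genes of mouse are homeobox genes that encode transcription factors and lie in 4 chromosomal clusters, Hoxa, Hoxb, Hoxc and Hoxd. They were taken here as every named probe set whose gene symbol is Hoxa, Hoxb, Hoxc or Hoxd followed by a number, with the probe set of highest mean level kept for each gene. This gave 38 genes of the 24011 named genes on the arrays: 10 Hoxa, 10 Hoxb, 9 Hoxc and 9 Hoxd genes. The study measured RNA of primary mouse myoblasts derived from satellite cells, the stem cells of skeletal muscle, on 1-colour arrays with 3 arrays in each of 3 groups. All cells were first grown in 20% fetal bovine serum with basic FGF on collagen-coated dishes, were then moved to 2% horse serum, and gave RNA after 24 h. The control cells were mock-treated, the BMP4 cells received recombinant BMP4 protein at 100 ng/ml, and the GREM1 cells received recombinant GREM1 protein at 500 ng/ml. The strain, age and muscle of origin of the mice are not stated in the labels, which also do not say whether replicates were separate cultures, so p-values measure only the spread between these samples. BMP4 is a secreted signal of the TGF-beta superfamily, and GREM1 is a secreted protein that binds BMPs and blocks their access to receptors.

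Along each cluster the genes are numbered by paralogue group, and genes of one number in different clusters descend from one ancestral gene. Low numbers are switched on early and toward the head, and high numbers later and toward the tail and the tips of the limbs, so the set of Hox genes that is on marks where along the body a cell arose. Adult muscle stem cells and fibroblasts keep such patterns in culture. HOX proteins bind DNA together with TALE homeodomain cofactors of the PBX, MEIS and PKNOX families, Polycomb complexes hold silent Hox genes off, and Trithorax complexes with MLL enzymes keep active ones on. Paralogue groups 1 to 4 are called anterior here, 5 to 8 central, and 9 to 13 posterior.

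Promoter windows, from 250 bases before to 50 bases after the annotated start, were read from RefSeq on GRCm38.p6, and 24 windows of 22 Hox genes were matched by symbol. Of the Hoxc genes only Hoxc4 had a window, and of the Hoxb genes only Hoxb1, Hoxb4 and Hoxb8. Hoxc9 and Hoxc11, the other Hox genes called below, had none. The Hox shares given here are therefore mostly those of Hoxa and Hoxd windows. The windows of Hoxa9 and Hoxd3 are shown because these genes moved in opposite directions with GREM1. The Hoxa9 window is chr6:52227321-52227620 on the minus strand, has a GC content of 49.7% and holds 4 CpG sites. The Hoxd3 window is chr2:74711743-74712042 on the plus strand, has a GC content of 54.0% and holds 20 CpG sites. Each is written 5′ to 3′ along its gene, and capitals mark matches to the motifs searched.
Hoxa9: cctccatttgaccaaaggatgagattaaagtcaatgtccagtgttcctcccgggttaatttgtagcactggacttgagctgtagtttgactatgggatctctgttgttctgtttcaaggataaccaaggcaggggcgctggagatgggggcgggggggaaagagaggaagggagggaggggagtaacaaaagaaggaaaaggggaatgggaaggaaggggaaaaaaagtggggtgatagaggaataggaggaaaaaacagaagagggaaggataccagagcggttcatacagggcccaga
Hoxd3: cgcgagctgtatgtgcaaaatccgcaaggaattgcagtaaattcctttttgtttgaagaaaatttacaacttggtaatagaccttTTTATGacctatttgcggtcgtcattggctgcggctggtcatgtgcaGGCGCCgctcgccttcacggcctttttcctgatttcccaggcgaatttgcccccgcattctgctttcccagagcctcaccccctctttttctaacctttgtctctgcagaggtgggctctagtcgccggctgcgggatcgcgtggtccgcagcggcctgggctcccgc
The motifs, searched on both strands, were GGCGCC, a GC-rich SMAD motif that reads the same on both strands, TGATNNAT, a PBX-HOX motif, and TTTATG, the core bound by posterior HOX proteins. In the Hoxd3 window TTTATG began at position -165 and GGCGCC at -118 from the start, and they did not overlap. None of the 3 motifs was found in the Hoxa9 window. GGCGCC stood in 5 of the 24 Hox windows (20.8%) against 11.9% of all 32851 promoter windows. TGATNNAT stood in 4 Hox windows (16.7%) against 8.85% of all, and TTTATG in 5 (20.8%) against 11.9%. The median GC content was 57.7% over the Hox windows and 52.7% over all windows. A match is only a description of the letters in the window.

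The deposited values are log2 levels, and a difference of 1 is a change of 2-fold. A gene was tested when it exceeded, on 3 arrays or more, the 30th percentile of all named probe sets of the same array, a limit of 3.89 to 4.02 on the log2 scale. Of all named genes 17142 passed, and 6869 did not. Over the tested genes the first principal component held 42.3% of the variance and placed the 3 GREM1 arrays at 15.96 to 27.46, with the other 6 below 0. The second held 20.9% and placed control array 1 at 31.6, with the next array, BMP4 array 1, at 6.12. Control array 1 was the highest of the 9 arrays for 9 of the 34 tested Hox genes, among them 4 of 9 Hoxc genes, and for 18.4% of all tested genes. GREM1 array 3 was the lowest for 10 of the 34, among them 5 of 9 Hoxc genes, and for 11.4% of all. For some of the genes below, values without these arrays are also given.

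Some Hoxa, Hoxc and Hoxd genes lay above the array median on all 9 arrays, and no Hoxb gene did. Most Hoxb genes still passed the filter, and a level below the median does not show that a gene is silent. Of the 38 genes, 34 passed the filter: 10 of 10 Hoxa, 8 of 10 Hoxb, 9 of 9 Hoxc and 7 of 9 Hoxd genes. Hoxb7, Hoxb8, Hoxd11 and Hoxd13 did not pass, and their control means were 3.37 ± 0.20, 3.90 ± 0.083, 3.88 ± 0.29 and 3.58 ± 0.27 (SD, n = 3). The array medians were 5.00 to 5.12, and 12 Hox genes lay above the median on every array. These were 5 Hoxa genes (Hoxa3, Hoxa5, Hoxa7, Hoxa9 and Hoxa11), 5 Hoxc genes (Hoxc4, Hoxc6, Hoxc8, Hoxc9 and Hoxc10), and Hoxd8 and Hoxd10. Another 19 lay below the median on every array: 9 of the 10 Hoxb genes, 6 Hoxd genes, Hoxa2, Hoxa10, Hoxc5 and Hoxc12. The remaining 7 genes, Hoxa4, Hoxa6, Hoxa13, Hoxb9, Hoxc11, Hoxc13 and Hoxd4, lay on different sides on different arrays. Probe sets differ in how strongly they bind, so levels are read against the whole array, and the order of levels between genes has no meaning. With the filter at the 50th percentile 13 Hox genes passed, none of them from Hoxb.

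**Figure D1:**
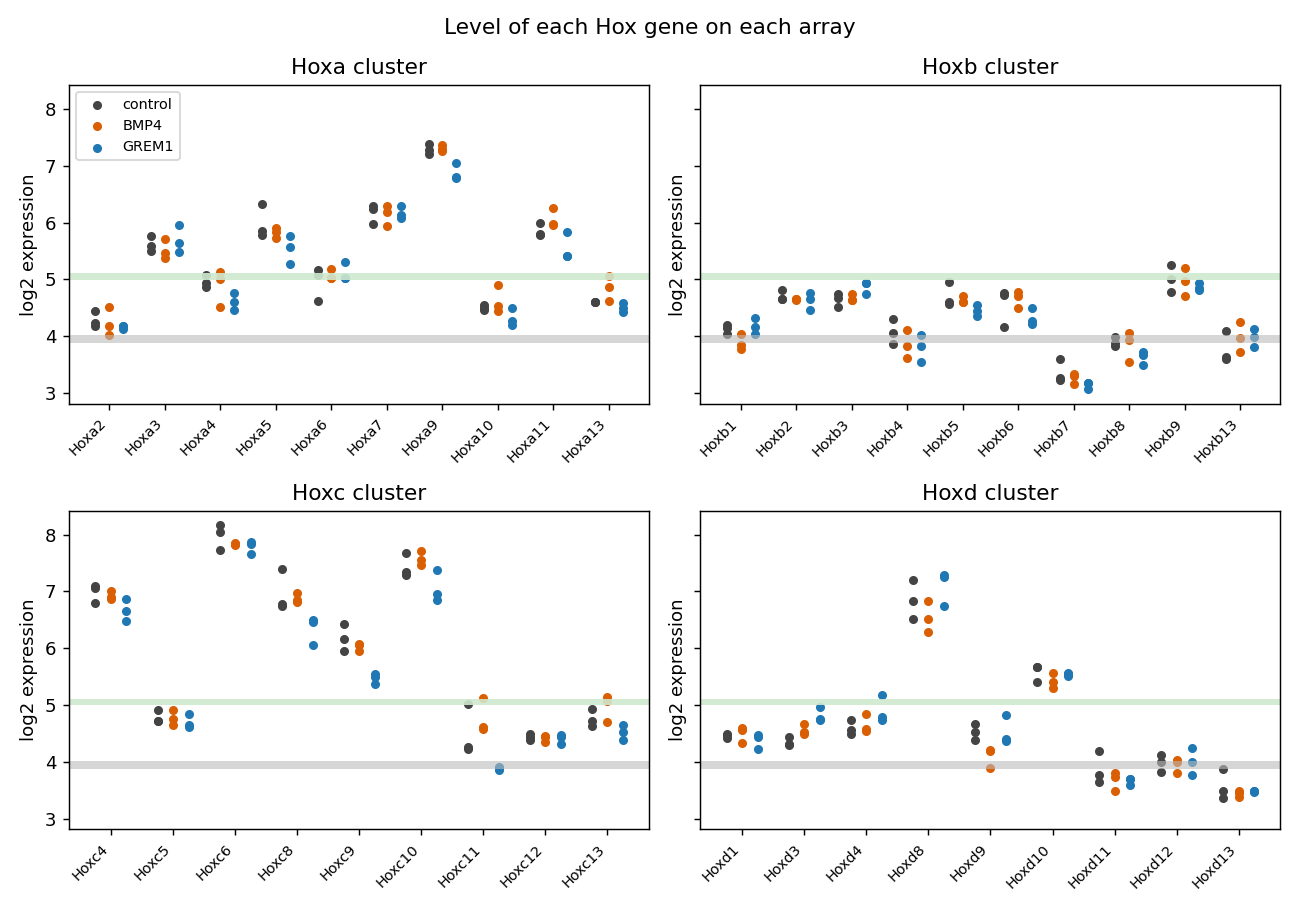
Level of each of the 38 Hox genes on each of the 9 arrays (y axis, deposited log2 value) by gene in cluster and paralogue order (x axis), coloured by group. The grey band is the filter limit (3.89 to 4.02), the green band the array medians (5.00 to 5.12), and no Hoxb gene has all its points above the green band.

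Genes above the median came from all 3 zones of the clusters, 2 of 11 anterior genes, 5 of 11 central genes and 5 of 16 posterior genes. In Hoxc the control means above the median were 6.98 ± 0.17 for Hoxc4, 7.98 ± 0.23 for Hoxc6, 6.98 ± 0.36 for Hoxc8, 6.18 ± 0.24 for Hoxc9 and 7.44 ± 0.22 for Hoxc10 (SD, n = 3). In the same cluster the control means of Hoxc5, Hoxc11, Hoxc12 and Hoxc13 were between 4.44 and 4.78. In Hoxa the control means above the median were 5.61 ± 0.13 for Hoxa3, 5.98 ± 0.30 for Hoxa5, 6.17 ± 0.17 for Hoxa7, 7.29 ± 0.086 for Hoxa9 and 5.86 ± 0.11 for Hoxa11. Genes above the array median stood beside genes below it within one cluster, as with Hoxa10, below it at 4.50 ± 0.052. In Hoxd the control means were 6.85 ± 0.34 for Hoxd8 and 5.58 ± 0.15 for Hoxd10, both above the array median, and 4.52 ± 0.14 for Hoxd9, below it. Over the 10 Hoxb genes the control means lay between 3.37 and 5.01, and only Hoxb9 exceeded the array median on any array, 2 of the 9.

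Gene models of several members overlap other genes of the clusters in RefSeq. Hoxd3 overlaps Hoxd4, the antisense transcript Hoxd3os1 and the microRNA gene Mir10b; Hoxa3 overlaps Hoxa4, Hoxa5 and Hoxa6; Hoxb3 overlaps Hoxb4; Hoxd10 overlaps Hoxd11; and Hoxa11 overlaps its antisense transcript Hoxa11os. Where the probes of each set lie is not given in the sources used here, so the signal of such partners cannot be told apart. Hoxa9, Hoxc9 and Hoxc11 overlap none of the genes compared.

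The first question of the design is what GREM1 does to the myoblasts beside mock treatment. In the fit without a block Hoxc9 and Hoxa9 were called lower with GREM1 and Hoxd3 higher. The other 31 of the 34 tested Hox genes did not pass. Differences were tested with limma over all tested genes, two-sided, with Benjamini-Hochberg adjustment at 0.05. The 3 genes called are 8.82% of the 34, against 4.28% of all 17142 tested genes. Of all tested genes 2.07% were called higher and 2.21% lower, against 1 and 2 of the 34 Hox genes. The Hox values lay below 0 for 24 of 34 genes (70.6%), against 51.4% of all tested genes, with medians of -0.11 and -0.0057 on the log2 scale. At an unadjusted p under 0.05, 9 Hox genes (26.5%) were lower and 2 (5.88%) higher, against 10.8% and 9.19% of all tested genes. The 9 lower genes and the 24 below 0 include Hoxc11, which passed the filter only through the control and BMP4 arrays. Deviations of same-numbered control and GREM1 arrays correlated at 0.118 to 0.473. GREM1 array 2, however, correlated more with control array 1 (0.159) than with control array 2 (0.118). With the replicate number as a block 6 Hox genes were called, against 11.6% of all tested genes. These were the same 3 with Hoxa11, Hoxb4 and Hoxc8, all 3 lower with GREM1. Hoxb4 exceeded the filter limit on only 4 of the 9 arrays. Of the 3 genes called without a block, only Hoxc9 was called without control array 1 or control array 3. Without GREM1 array 1 none was. An exact permutation test of 3 arrays against 3 cannot give a p below 0.1, so single genes were not tested that way.

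Hoxc9, a posterior gene of the Hoxc cluster, read 6.42, 5.95 and 6.17 on the control arrays, 6.06, 5.95 and 6.07 with BMP4, and 5.50, 5.55 and 5.38 with GREM1. All 3 GREM1 arrays lay below all 6 others. The level with GREM1 was 1.63-fold lower than in controls, a difference of -0.70 ± 0.12 (SE) on the log2 scale with a limma adjusted p of 0.0139. Without control array 1 the difference was -0.58 with a limma adjusted p of 0.0311, and without GREM1 array 1 it was -0.71 with an adjusted p of 0.0549. Without GREM1 array 3 the difference was -0.65 and the adjusted p 0.0451.

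Hoxa9, the posterior Hoxa gene known from hematopoietic stem cells and from regeneration by aged muscle stem cells, read 7.27, 7.38 and 7.21 in controls, 7.26, 7.37 and 7.30 with BMP4, and 6.78, 7.06 and 6.80 with GREM1. The control and BMP4 arrays overlapped, and all 3 GREM1 arrays lay below them. The GREM1 difference from control was -0.41 ± 0.096 (SE), 1.33-fold lower, with a limma adjusted p of 0.0459. This call was near the threshold: leaving out any 1 of the 9 arrays other than GREM1 array 2 raised the limma adjusted p above it, to between 0.0539 (without BMP4 array 3) and 0.151 (without GREM1 array 1), at differences of -0.36 to -0.45. Centring each array on its median gave an adjusted p of 0.0606.

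Hoxd3, an anterior gene, was below the array median throughout and read 4.29, 4.43 and 4.32 in controls, 4.66, 4.52 and 4.49 with BMP4, and 4.73, 4.96 and 4.76 with GREM1. The 3 groups did not overlap, with controls lowest and GREM1 highest. The GREM1 difference was 0.47 ± 0.092 (SE), 1.38-fold higher, with a limma adjusted p of 0.0245. The limma adjusted p was 0.0724 without control array 1, 0.0823 without control array 3, 0.0601 without GREM1 array 1 and 0.0895 without GREM1 array 2, at differences of 0.40 to 0.51. Its overlapping partners did not pass the test: Hoxd4 differed by 0.30 ± 0.14 (limma adjusted p = 0.254) and Hoxd3os1 by 0.27 ± 0.15 (adjusted p = 0.341).

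**Figure D2:**
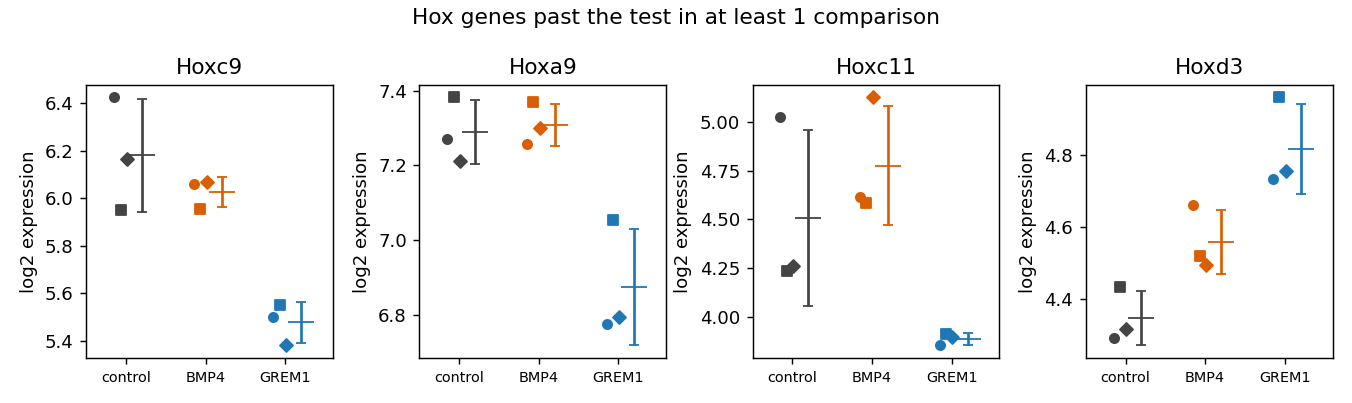
Deposited log2 value (y axis) of Hoxc9, Hoxa9, Hoxc11 and Hoxd3 on each array, by group (x axis). Circles, squares and diamonds are replicates 1, 2 and 3, and bars are the mean ± SD of 3 arrays. The GREM1 points of Hoxc9, Hoxa9 and Hoxc11 lie below all others, and those of Hoxd3 lie above all others. Hoxc11 passed the filter only through the control and BMP4 arrays.

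The next gene by p was Hoxc8, a central gene, which passed only with the replicate block. It read 7.39, 6.75 and 6.79 in controls, 6.98, 6.81 and 6.85 with BMP4, and 6.50, 6.46 and 6.05 with GREM1. Its GREM1 arrays lay below all others, at a difference of -0.64 ± 0.18 (SE) from control and a limma adjusted p of 0.0831, or 0.0169 with the replicate block. Without control array 1 the difference was -0.43, and without GREM1 array 3 it was -0.49. Groups did not overlap for 9 of the 34 Hox genes (26.5%), against 24.0% of all tested genes, a share near the background. These were Hoxd3, which was higher, and Hoxa4, Hoxa5, Hoxa9, Hoxa13, Hoxb5, Hoxc8, Hoxc9 and Hoxc11, which were lower with GREM1. Among them Hoxc11 passed the filter only through the control and BMP4 arrays, so it had to differ.

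Of the 9 Hoxc genes, Hoxc11 passed the filter only through the control and BMP4 arrays. By cluster, all 9 had a GREM1 value below the control value, with a median difference of -0.31. This count was 8 of 9 with median centring, without control array 1 (median -0.25) and without GREM1 array 1, and the median was -0.22 without GREM1 array 3. The mean over the 9 Hoxc genes was 6.20, 5.92 and 5.89 on the control arrays, 6.05, 5.97 and 6.05 with BMP4, and 5.67, 5.73 and 5.56 with GREM1. The control arrays and the GREM1 arrays did not overlap on this mean, and control array 1 was the highest. The posterior Hoxc genes differed by -0.38 ± 0.15 for Hoxc10, -0.62 ± 0.22 for Hoxc11 (-0.36 without control array 1), -0.02 ± 0.079 for Hoxc12 and -0.24 ± 0.13 for Hoxc13 (SE), and none of these passed. The anterior gene Hoxc4 differed by -0.31 ± 0.12 and the central genes Hoxc5 and Hoxc6 by -0.08 ± 0.10 and -0.19 ± 0.12, and they did not pass either.

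The other clusters were less uniform. In Hoxa 8 of 10 genes were below 0 with a median of -0.15, from Hoxa5 at -0.45 ± 0.16 (SE), or -0.28 without control array 1, to Hoxa6 at 0.16 ± 0.15. The mean over the Hoxa genes was 5.53, 5.41 and 5.33 in controls, 5.46, 5.49 and 5.41 with BMP4, and 5.24, 5.28 and 5.25 with GREM1, so that the GREM1 arrays were lowest here too. In Hoxb 5 of 8 tested genes were below 0 with a median of -0.12, and the values ran from -0.28 ± 0.17 for Hoxb4 to 0.23 ± 0.093 for Hoxb3. That of Hoxb4 was -0.17 without control array 1 and -0.15 without GREM1 array 3, and had a limma adjusted p of 0.387, or 0.0399 with the replicate block. In Hoxd 5 of 7 were above 0 with a median of 0.02, which became -0.05 without GREM1 array 1. The mean over the Hoxd genes was 4.99, 4.93 and 4.80 in controls, 4.96, 4.77 and 4.73 with BMP4, and 5.13, 5.04 and 4.95 with GREM1. The control and GREM1 arrays overlapped on that mean. Differences between clusters were not tested.

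**Figure D3:**
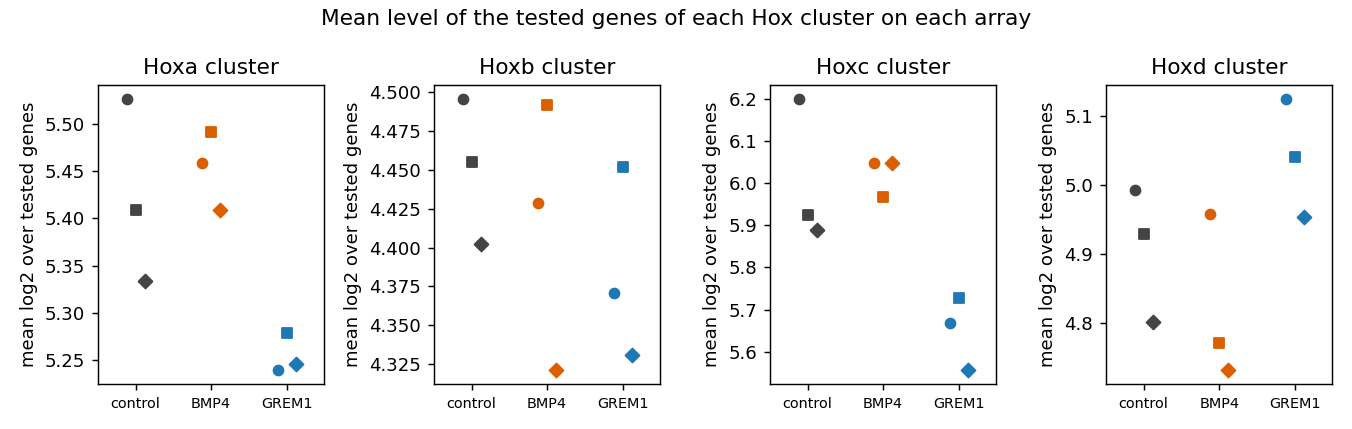
Mean deposited log2 value over the tested genes of each cluster (y axis) on each array, by group (x axis), with 1 panel per cluster. The GREM1 arrays lie below the control arrays in the Hoxa and Hoxc panels (5.56 to 5.73 against 5.89 to 6.20 in Hoxc) and overlap them in the Hoxd panel.

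By position along the clusters, the median GREM1 difference was -0.08 over 11 anterior genes (6 below 0), -0.19 over 9 central genes (7 below 0) and -0.16 over 14 posterior genes (11 below 0). The posterior genes include Hoxc11, which passed the filter only through the control and BMP4 arrays. Of the 4 members of paralogue group 9, Hoxa9 and Hoxc9 were called lower, Hoxb9 was at -0.15 ± 0.15 (SE) and Hoxd9 at 0.01 ± 0.14. Differences between members were not tested. All 3 members of paralogue group 3 were above 0, Hoxa3 at 0.08 ± 0.14, Hoxb3 at 0.23 ± 0.093 and Hoxd3 at 0.47 ± 0.092. Of paralogue group 4, Hoxa4 was at -0.35 ± 0.16, Hoxb4 at -0.28 ± 0.17, Hoxc4 at -0.31 ± 0.12 and Hoxd4 at 0.30 ± 0.14. The 3 members of group 5, Hoxa5, Hoxb5 and Hoxc5, were all below 0, at -0.45, -0.26 and -0.08.

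With BMP4, no Hox gene passed the test against control. The share called over all tested genes was 0.117%, so few calls were made at all in this comparison. At an unadjusted p under 0.05, 2 Hox genes were higher and 2 lower (5.88% each), against 4.03% and 3.99% of all tested genes. The replicate block gave no Hox gene either, against 0.379% of all. The median over the 34 genes was -0.04, against -0.0060 over all tested genes. The 95% confidence intervals of all 34 differences lay within -0.78 to 0.75 on the log2 scale, so changes up to that size in single genes are not shown to be absent. Groups did not overlap for 3 of 34 (8.82%), against 11.2% of all tested genes. BMP4 and GREM1 were compared with the same control arrays.

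The 4 Hox genes with the smallest p were Hoxd9, Hoxb1, Hoxd3 and Hoxa13. Hoxd9, a posterior gene, read 4.66, 4.53 and 4.38 in controls, 4.19, 4.22 and 3.90 with BMP4, and 4.83, 4.37 and 4.41 with GREM1. The BMP4 arrays were the lowest, at a difference of -0.42 ± 0.14 (SE) with a limma adjusted p of 0.520. Hoxb1, the most anterior Hoxb gene, read 4.14, 4.05 and 4.20 in controls and 3.78, 4.05 and 3.85 with BMP4, and lay close to the filter limit. It differed by -0.24 ± 0.10 with a limma adjusted p of 0.610. Hoxa13, a gene of the distal limb, read 4.60 on all 3 control arrays and 4.87, 4.62 and 5.06 with BMP4. Its difference of 0.25 ± 0.11 had a limma adjusted p of 0.613, and that of Hoxd3 was 0.21 ± 0.092 with an adjusted p of 0.611. The genes called with GREM1 gave, with BMP4 against control, -0.15 ± 0.12 for Hoxc9 and 0.02 ± 0.096 for Hoxa9.

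**Figure D4:**
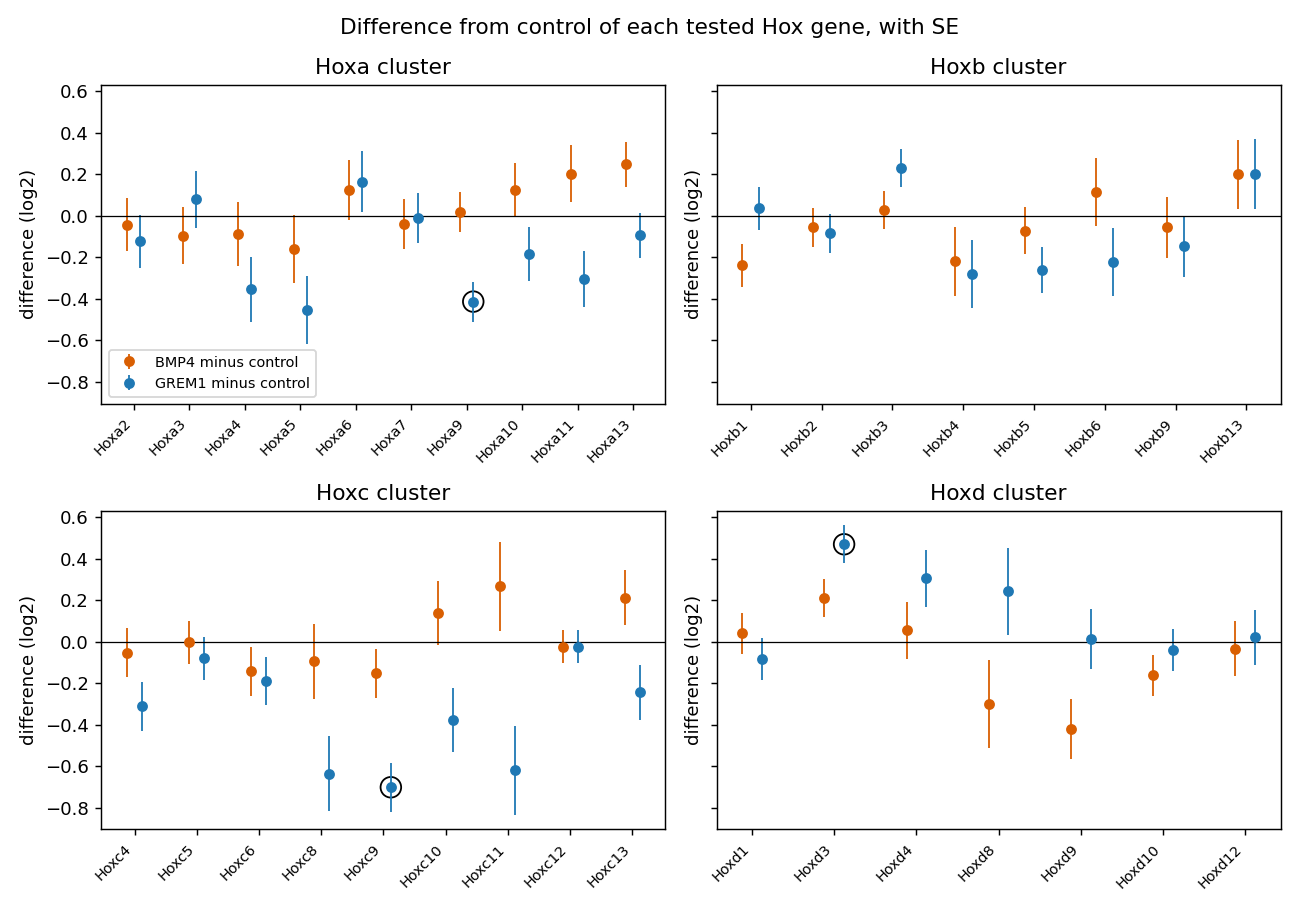
Difference in log2 level (y axis) for each tested Hox gene (x axis), for BMP4 minus control and GREM1 minus control, with a panel for each cluster. Bars are standard errors and black circles mark a limma adjusted p under 0.05. No gene is circled for BMP4 minus control, and Hoxc9, Hoxa9 and Hoxd3 are circled for GREM1 minus control.

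Set directly against each other in the fit without a block, BMP4 and GREM1 differed in 3 Hox genes, Hoxc9, Hoxa9 and Hoxc11, all higher with BMP4. Hoxc11 passed the filter only through the control and BMP4 arrays. The 3, Hoxc11 among them, are 8.82% of the 34 tested, against 6.45% of all tested genes. Of all tested genes 3.62% were higher with BMP4 and 2.83% lower, against 3 and 0 of the Hox genes. At an unadjusted p under 0.05, 9 Hox genes (26.5%) were higher and 4 (11.8%) lower, against 10.1% and 9.31% of all tested genes. This comparison shares the GREM1 arrays with the comparison above, so its values are not independent of it. Groups did not overlap for 11 of 34 Hox genes (32.4%), against 24.5% of all tested genes. Hoxc11 is counted in these 11, and in the 9 that were higher at an unadjusted p under 0.05. The BMP4 level of Hoxc9 was 1.46-fold higher, a difference of 0.55 ± 0.12 (SE) with a limma adjusted p of 0.0249. That of Hoxa9 was 1.35-fold higher, at 0.43 ± 0.096 with a limma adjusted p of 0.0287.

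Hoxc11, a posterior gene beside Hoxc10 in the cluster, read 5.03, 4.23 and 4.26 in controls, 4.61, 4.58 and 5.13 with BMP4, and 3.85, 3.91 and 3.89 with GREM1. The 3 GREM1 arrays lay below every other array and below their own filter limits, and control array 1 and BMP4 array 3 were the highest. The measured difference between BMP4 and GREM1 was 0.89 ± 0.22 (SE) with a limma adjusted p of 0.0401. Only the 6 other arrays were above their limits, and a gene that enters the test in this way had to differ. With no filter on low values the limma adjusted p of Hoxc11 was 0.0569. Hoxc9 and Hoxa9 were then the Hox genes called, 5.26% of 38, against 3.96% of all named genes. Against control the GREM1 difference of Hoxc11 was -0.62 ± 0.22, with a limma adjusted p of 0.143, and it was -0.36 without control array 1. Hoxa11 was next, with 5.98, 5.96 and 6.26 with BMP4 against 5.42, 5.42 and 5.84 with GREM1, at 0.51 ± 0.14 and a limma adjusted p of 0.0594.

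All 3 of these calls depended on single arrays. No Hox gene was called without BMP4 array 1 or without GREM1 array 1. None of the 3 was kept without BMP4 array 2, BMP4 array 3 or GREM1 array 3, where the only Hox gene called was Hoxa13, Hoxc13 and Hoxa11, in this order. Without GREM1 array 2, Hoxa9 was kept and Hoxc10 was called with it. The Hoxc9 difference was then 0.50 to 0.59, and its limma adjusted p was between 0.0574 (without BMP4 array 2) and 0.0839 (without BMP4 array 3). That of Hoxc11 was 0.71 to 0.98, with a limma adjusted p of 0.0662 (without BMP4 array 1) to 0.135 (without BMP4 array 3). Hoxa9 remained called without GREM1 array 2 (limma adjusted p = 0.0192) and had an adjusted p of up to 0.114 without another BMP4 or GREM1 array.

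Over the Hoxc cluster all 9 genes were higher with BMP4 than with GREM1, with a median of 0.45. The count was 8 of 9 without BMP4 array 1, BMP4 array 2, GREM1 array 1 or GREM1 array 2. In Hoxa 7 of 10 were higher with a median of 0.28, and in Hoxb 5 of 8 with a median of 0.05. In Hoxd 6 of 7 were lower with a median of -0.25. The gene of Hoxd with the largest difference was Hoxd8, which read 6.84, 6.52 and 6.28 with BMP4 and 7.29, 7.25 and 6.74 with GREM1, at -0.54 ± 0.21 (SE) and a limma adjusted p of 0.189. Its control arrays read 7.20, 6.83 and 6.52 and overlapped both. The Hoxd8 difference between BMP4 and GREM1 was -0.72 without GREM1 array 3 and -0.41 without BMP4 array 3. Against control its GREM1 difference was 0.24. It was 0.41 without control array 1, 0.42 without GREM1 array 3 and 0.08 without control array 3. By zone, 10 of 14 posterior genes were higher with BMP4 (median 0.32), against 6 of 11 anterior genes (median 0.03) and 6 of 9 central genes (median 0.08). The Hoxc and posterior counts include Hoxc11, which passed the filter only through the control and BMP4 arrays.

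Non-coding transcripts of the clusters were measured for 13 genes, of which 8 passed the filter and none was called in any comparison without a block. At an unadjusted p under 0.05 the limma fit gave none with BMP4 against control, 1 lower with GREM1, and 1 higher and 1 lower between BMP4 and GREM1. Hotair, a long RNA from between Hoxc11 and Hoxc12, read 6.04, 5.84 and 6.03 in controls, 5.97, 5.85 and 6.02 with BMP4, and 5.43, 5.74 and 5.89 with GREM1. It differed by -0.28 ± 0.12 (SE) with GREM1, at a limma adjusted p of 0.233. Hoxa11os, antisense to Hoxa11, differed by -0.43 ± 0.20 with GREM1 (limma adjusted p = 0.276, or 0.0209 with the replicate block) and by 0.57 ± 0.20 between BMP4 and GREM1 (adjusted p = 0.148), while Hoxa11 itself differed by -0.30 ± 0.14 (adjusted p = 0.253, or 0.0432 with the block) and by 0.51 ± 0.14. The Mir10a, Mir10b and Mir196a-1 genes, Hottip and Haglr did not pass the filter.

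The TALE cofactors of HOX proteins were measured above the filter in these cells, and none passed the test. All 8 measured members passed the filter, and 6 (Meis1, Meis3, Pbx2, Pbx3, Pknox1 and Pknox2) lay above the array median on every array. No member was called in any comparison, with 1 higher at an unadjusted limma p under 0.05 with BMP4, 2 higher with GREM1, and 1 lower in BMP4 against GREM1. Median differences were 0.02 with BMP4, 0.11 with GREM1 and -0.09 between BMP4 and GREM1. Pknox1 read 5.25, 5.46 and 5.60 in controls, 5.70, 5.65 and 5.77 with BMP4, and 5.65, 5.75 and 5.80 with GREM1, at a GREM1 difference of 0.30 ± 0.10 (SE) and a limma adjusted p of 0.133. Pbx3 differed by 0.34 ± 0.15 with GREM1, with an adjusted p of 0.240.

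Among the complexes that keep Hox genes off or on, 2 of 31 measured Polycomb genes rose with GREM1 (6.45%, against 2.07% of all tested genes), none fell, and the median over the list was -0.08. Unadjusted limma p-values were under 0.05 for 2 higher and 6 lower of the 31, against 9.19% and 10.8% of all tested genes. Groups did not overlap for 11 of the 31 (35.5%), against 24.0% of all tested genes. Of these 11, 9 were lower, against 2181 of 4119 among all tested genes. Ezh1, a methyltransferase of histone H3 lysine 27 found in non-dividing cells, read 5.82, 5.98 and 6.14 in controls, 6.15, 6.16 and 6.14 with BMP4, and 6.51, 6.44 and 6.31 with GREM1. Its GREM1 difference was 0.44 ± 0.097 (SE), with a limma adjusted p of 0.0374, and the GREM1 arrays lay above all others. The adjusted p reached 0.133 when single arrays were left out, and was over 0.05 without control array 1 or 2, BMP4 array 1 or 2, or GREM1 array 1 or 2. Pcgf3, a RING-finger subunit of a variant Polycomb complex, read 9.24, 9.21 and 9.19 in controls, 9.006, 9.004 and 9.075 with BMP4, and 9.68, 9.49 and 9.74 with GREM1. It was 0.43 ± 0.084 higher with GREM1 than in controls (limma adjusted p = 0.0245) and 0.61 ± 0.084 lower with BMP4 than with GREM1 (adjusted p = 0.00263). The first of these calls was lost without control array 1, 2 or 3 or GREM1 array 1 or 3 (adjusted p up to 0.0954), and the second was kept under all 18 alternatives run (up to 0.0172). Ezh2 and Eed, also Polycomb genes, differed by -0.30 ± 0.12 and -0.27 ± 0.081 with GREM1 and did not pass, with limma adjusted p of 0.185 and 0.102. With the replicate block that of Ezh2 was 0.0351. No Polycomb gene was called with BMP4 against control by limma, and none had an unadjusted p under 0.05 there.

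Of 17 measured Trithorax group genes and H3K27 demethylases, none was called against control with either protein in the limma fit without a block. With BMP4 1 was higher at an unadjusted p under 0.05, and with GREM1 4 were higher and 1 lower. The replicate block called Kdm6b higher (adjusted p = 0.0258) and Psip1 lower with GREM1. Hcfc1, a scaffold of SET1 and MLL complexes, read 9.29, 9.28 and 9.37 with BMP4 and 9.62, 9.62 and 9.60 with GREM1. The groups did not overlap, and the difference of -0.30 ± 0.071 (SE) had a limma adjusted p of 0.0384. It was over 0.05 without any 1 array other than control array 1, and with median centring or quantile normalization, and reached 0.124. Psip1, which tethers MLL complexes to chromatin and is required for Hox expression, read 8.96, 8.77 and 9.06 in controls and 8.64, 8.42 and 8.44 with GREM1. Its difference of -0.43 ± 0.10 had a limma adjusted p of 0.0508 and did not pass, and with the replicate block it was 0.0215. Kmt2a, which encodes MLL1, lay above the array median on all arrays and was not called in any comparison.

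Of position genes outside the clusters, Tbx4 and Pitx1, which mark the hind limb, passed the filter, and Tbx5, which marks the fore limb, did not. Tbx4 read 5.15 to 5.71 over the 9 arrays, Pitx1 4.09 to 4.80, below the array median on every array, and Tbx5 3.57 to 3.98. These 3 genes were chosen for print after their values were seen, and a gene under the filter is not shown to be silent. Of 25 measured position genes 18 passed the filter, and 1 was called without a block. With the replicate block Gdf11 and Pax3 were lower with GREM1 than in controls, at limma adjusted p of 0.00656 and 0.0208. Tbx15, a T-box gene of trunk and limb known from fast glycolytic muscle, read 7.56, 7.59 and 7.14 in controls, 7.41, 7.32 and 6.83 with BMP4, and 8.11, 8.12 and 8.19 with GREM1. Its GREM1 difference was 0.71 ± 0.16 (SE), 1.64-fold higher than control, with a limma adjusted p of 0.0448, and the BMP4 level was lower than the GREM1 level by 0.96 ± 0.16 (adjusted p = 0.00896). The call against control was lost without any 1 array other than BMP4 array 1 or 3 (limma adjusted p up to 0.131), and the difference between BMP4 and GREM1 was called under all 18 alternatives run (up to 0.0384).

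**Figure D5:**
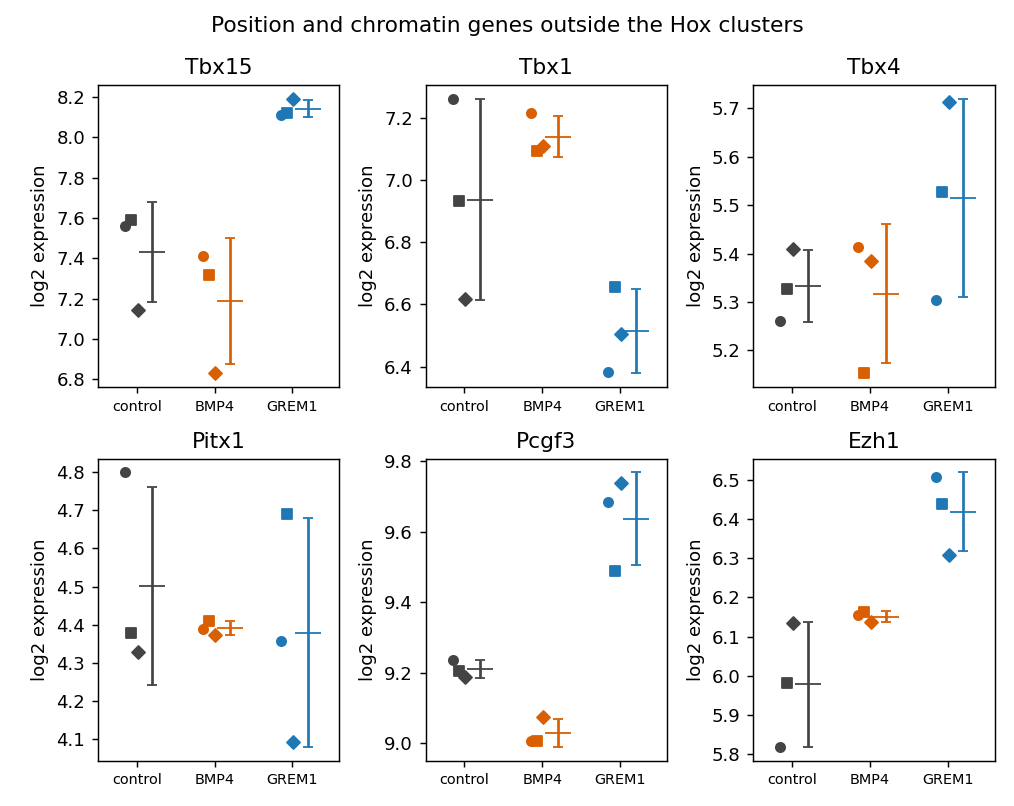
Deposited log2 value (y axis) of Tbx15, Tbx1, Tbx4, Pitx1, Pcgf3 and Ezh1 on each array, by group (x axis). Circles, squares and diamonds are replicates 1, 2 and 3, and bars are the mean ± SD of 3 arrays. The GREM1 points of Tbx15, Pcgf3 and Ezh1 lie above all others, and those of Tbx1 lie below the BMP4 points.

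Genes of head and branchial muscle, which in the embryo forms outside the Hox-coded trunk, were measured for 7 members, and 5 passed the filter. Tbx1, a regulator of branchial muscle, read 7.26, 6.93 and 6.62 in controls, 7.22, 7.09 and 7.11 with BMP4, and 6.38, 6.66 and 6.50 with GREM1. It was 0.63 ± 0.15 (SE) higher with BMP4 than with GREM1, with a limma adjusted p of 0.0375, and no other gene of the list was called in any comparison. This p was over 0.05 without control array 2 or any 1 BMP4 or GREM1 array, and with quantile normalization, and reached 0.145. Of the retinoic acid pathway, which sets Hox boundaries in the embryo, 15 of 17 measured genes passed the filter and 1 was called without a block. The replicate block called Dhrs3 higher with BMP4 (limma adjusted p = 0.0138) and Aldh1a1 higher with GREM1 (adjusted p = 0.0406) than in controls. Crabp2, which carries retinoic acid to its nuclear receptors, read 9.21, 9.30 and 8.30 with BMP4 and 7.57, 7.98 and 7.51 with GREM1, a difference of 1.25 ± 0.27 with a limma adjusted p of 0.0242 that rose to up to 0.0966 without BMP4 array 1 or 2 or GREM1 array 1 or 3. Against control its GREM1 difference was -1.06 ± 0.27 (adjusted p = 0.0571, or 0.00322 with the replicate block).

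Markers of the labelled cell type were present, since all 10 myogenic markers, Pax7, Myf5, Myod1 and Myog among them, lay above the array median on all 9 arrays. Their mean over the list was 9.15 to 9.53 on the control arrays, 9.47 to 9.54 with BMP4 and 9.56 to 9.78 with GREM1. Of the 10, Cdh15 and Itga7 rose with GREM1, by 0.91 ± 0.11 and 1.00 ± 0.12 (SE), with limma adjusted p of 0.00347 and 0.00321. The list did not move one way: 7 of 10 were above 0 and 3 below, with Myf5 at -0.85 ± 0.29, Pax7 at -0.20 ± 0.15 and Vcam1 at -0.15 ± 0.24. With the replicate block 4 were higher and 1, Myf5, lower (limma adjusted p = 0.000974). Fibroblast markers were measured for 10 genes, with Pdgfra, Dcn, Dpt and Lum below the filter and none called by limma. In each comparison 2 were lower at an unadjusted p under 0.05, and 1 was higher with BMP4 than with GREM1. With the replicate block Col3a1 and Osr1 were lower with GREM1 than in controls, at limma adjusted p of 0.00775 and 0.0428. The mean over that list was 5.06 to 5.15 in controls, 4.96 to 5.12 with BMP4 and 4.96 to 5.03 with GREM1. Of 8 pericyte and smooth muscle markers 6 passed the filter, and between BMP4 and GREM1 Cspg4 and Mcam were higher and Abcc9 lower with BMP4, of which Mcam was called under all 18 alternatives run. With the replicate block Abcc9 was higher and Mcam lower with GREM1 than in controls. Of the 5 tendon markers Scx was 0.95 ± 0.16 lower with BMP4 than with GREM1 (limma adjusted p = 0.00920), and with the replicate block it was higher with GREM1 than in controls. Endothelial markers passed the filter for 3 of 7 genes, leukocyte markers for 2 of 6 and Schwann cell markers for 2 of 3, and none was called or had an unadjusted limma p under 0.05. The part of these cell types in the Hox differences was not tested, and in such bulk samples fewer cells of a type and less RNA per cell cannot be told apart.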

How the data were processed

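RNA was amplified with Ovation PicoSL and Exon Module kits and biotin-labelled, per the labels' protocols. The authors deposited 1 table of log2 values for 9 arrays, for which the submitters' processing notes name RMA and Affymetrix Expression Console. Its 24973 probe sets held values of 1.80 to 12.7. Array annotation gave 1 symbol to 24015 of them and none to 958; for 4 genes with several probe sets the highest mean was kept. All 38 Hox symbols matched RefSeq by Entrez ID. Members and gene lists were chosen with earlier results of these data known. At least 3 arrays had to lie above their own 30th percentile. All 3 groups entered one fit without covariates (limma 3.58.1, R 4.3.3; lmFit, eBayes), two-sided, with Benjamini-Hochberg adjustment over 17142 genes at 0.05; the median standard error was 0.115. Precision is limited by having 3 arrays a group. Replicate numbers were checked for pairing, from the data only: deviations of same-numbered arrays correlated at 0.170 to 0.580 between control and BMP4 and at 0.118 to 0.473 between control and GREM1, but at 0.088 to 0.423 between BMP4 and GREM1. The block is therefore given beside results against control where it changes a call. Arrays of different numbers correlated at -0.475 to 0.232 over all pairs of groups. Printed in full were called Hox genes and, for each comparison, the 4 with the smallest p; of each list, called members, else up to 4. Alternatives changed the block, samples, variance prior, weights, normalization, filter and probe-set rule.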

Additional observations from a re-analysis of the deposited data

How the results depend on the processing

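In GREM1 against control, 3 Hox genes were called; the count was 1 with the 2 groups fitted alone and 0 to 2 when 1 array was left out (0 without GREM1 replicate 1). In BMP4 against GREM1, 3 were called; the count was 6 with array weights and 0 to 4 when 1 array was left out. Array weights called 10.3% of all genes there, against 6.45%, and leaving out 1 array 3.27% to 6.74%. BMP4 and GREM1 arrays shared only a number (1 of 3 correlations under 0.1), and not every array correlated best with its own number. The replicate block gave 8 calls there, at 12.8% of all genes. Hoxa9, Hoxa11, Hoxc8, Hoxc9, Hoxc11 and Hoxc13 were higher with BMP4 than with GREM1, of which Hoxc11 passed the filter only through the control and BMP4 arrays. Hoxd8 (limma adjusted p = 0.00489) and Hoxd9 (adjusted p = 0.0252) were lower. Against control the block gave 0 calls for BMP4 and 6 for GREM1. It changed no other call of a Hox gene against control than those named above. The block without control replicate 1, chosen after seeing the data, gave 0, 2 and 8 in the order BMP4 against control, GREM1 against control and BMP4 against GREM1. No Hox gene was called with BMP4 against control under any alternative run. Signs turned only for uncalled differences. Hoxa9, BMP4 against control, was -0.0020 with array weights, -0.014 with quantile normalization, and -0.019 (without control replicate 3) to 0.066 when 1 array was left out, also below 0 without BMP4 replicate 2 (-0.011). Hoxc8 in that comparison was 0.021 with array weights, 0.046 with the block without control replicate 1, and -0.21 to 0.11 (without control replicate 1) when 1 array was left out. Hoxb1, GREM1 against control, was -0.038 (without GREM1 replicate 2) to 0.10 when 1 array was left out, and -0.0061 without control replicate 2. Hoxd9 was -0.14 (without GREM1 replicate 1) to 0.093, -0.061 without control replicate 3, and -0.015 with the block without control replicate 1. The cause of these changes was not tested. Of the GREM1 calls, Hoxc9 was lost under 1 of 18 alternatives, Hoxa9 under 11 of 18 and Hoxd3 under 5 of 17. The Hox median was -0.096 to 0.012 for BMP4 against control, -0.30 to -0.08 for GREM1 against control and 0.06 to 0.26 for BMP4 against GREM1. The called genes of the other lists were run under the same alternatives, a choice made after seeing the data, and none changed sign.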

Other observations

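Some Hox probe sets carried identical values on several arrays: 8 of 38 Hox genes (21.1%) had at least 3 arrays sharing 1 value, against 25.97% of all 24011 named genes. Hoxa2, Hoxa6 and Hoxb2 had 4 such arrays each.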
